A study of Mus musculus with 17 samples.

Results

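The genes described here are 32 mouse genes of serum response factor (Srf) and the actin cytoskeleton: Srf itself, the actins, proteins that crosslink or bind actin filaments, tropomyosins, myosin II chains, integrin and focal adhesion proteins, LIM domain proteins, and actin monomer binding and turnover proteins. Their members were the probe sets annotated to exactly 1 of these genes, a probe set being a group of short oligonucleotides on an array that together measure 1 transcript. This gave 69 of 22690 probe sets in a table of 8 arrays, covering all 32 genes, and 52 of 12488 in a table of 9 arrays of an older array design, covering 30 genes, without Srf and Cald1. Of these, 3 and 6 were control probe sets for beta-actin, which are described apart from the others.

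All samples were NIH 3T3 cells, an established line of mouse embryonic fibroblasts, made quiescent and then treated or not with platelet-derived growth factor (PDGF) at 25 ng/ml. The 8-array table held the Src experiment, with cells given vehicle, the Src family kinase inhibitor SU6656 at 2 µM, the MEK inhibitor UO126 at 10 µM or the phosphatidylinositol 3-kinase inhibitor LY294002 at 7.5 µM, each without PDGF and with PDGF for 1 h. The 9-array table held the MEK experiment, with untreated cells, UO126 at 10 µM and the MEK inhibitor PD98059 at 7.5 µM, each without and with PDGF, and a repeat of part of the Src experiment with vehicle, PDGF for 1 h, and PDGF with SU6656. The time with PDGF in the MEK experiment is not given in the sources used here. Each condition was 1 array, and the labels do not tell whether the cultures behind the arrays were separate, so p-values measure the spread between these arrays only. NIH 3T3 is a single cell line kept in culture. Its 10 fibroblast marker genes all passed the filter on low signal in both tables.

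Srf is a transcription factor that binds a short DNA element called the CArG box. It works with 2 kinds of partner, ternary complex factors and myocardin-related factors (MRTFs). Ternary complex factors are phosphorylated by ERK, a kinase downstream of MEK, and switch on immediate early genes. MRTFs bind actin monomers and move to the nucleus when actin monomers are taken up into filaments. Many genes of the cytoskeleton are known targets of Srf with MRTFs, and in fibroblasts growth factors both rearrange actin and switch on immediate early genes.

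In the 8-array table, 8 of the 31 member genes that passed the filter on low signal rose with PDGF and none fell. They were Srf, the integrin alpha 5 chain (Itga5), Lima1, Tpm1, Zyx, Tagln, Vcl and Actg1, and they rose 1.21-fold to 1.79-fold. Of all 9219 genes tested there, 2.47% rose and 0.814% fell. Over the 31 members the median PDGF change was 0.18 on the log2 scale and ran from -0.21 to 0.84, beside a median of -0.05 over all genes. In these bulk samples, fewer cells of a kind and less RNA per cell cannot be told apart. A gene is described by its probe set of highest mean signal, and a change by the log2 difference of signal plus a small offset, which understates the change of dim genes. The test was limma's moderated test over the 4 pairs of arrays that share an inhibitor, with an adjusted p below 0.05 taken as called. The count of 8 was 4 without the vehicle array, 4 without the PDGF array, 3 without the SU6656 array and 4 without the array of PDGF with SU6656. It was 2 when the pairs were not used as a block.

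**Figure D1:**
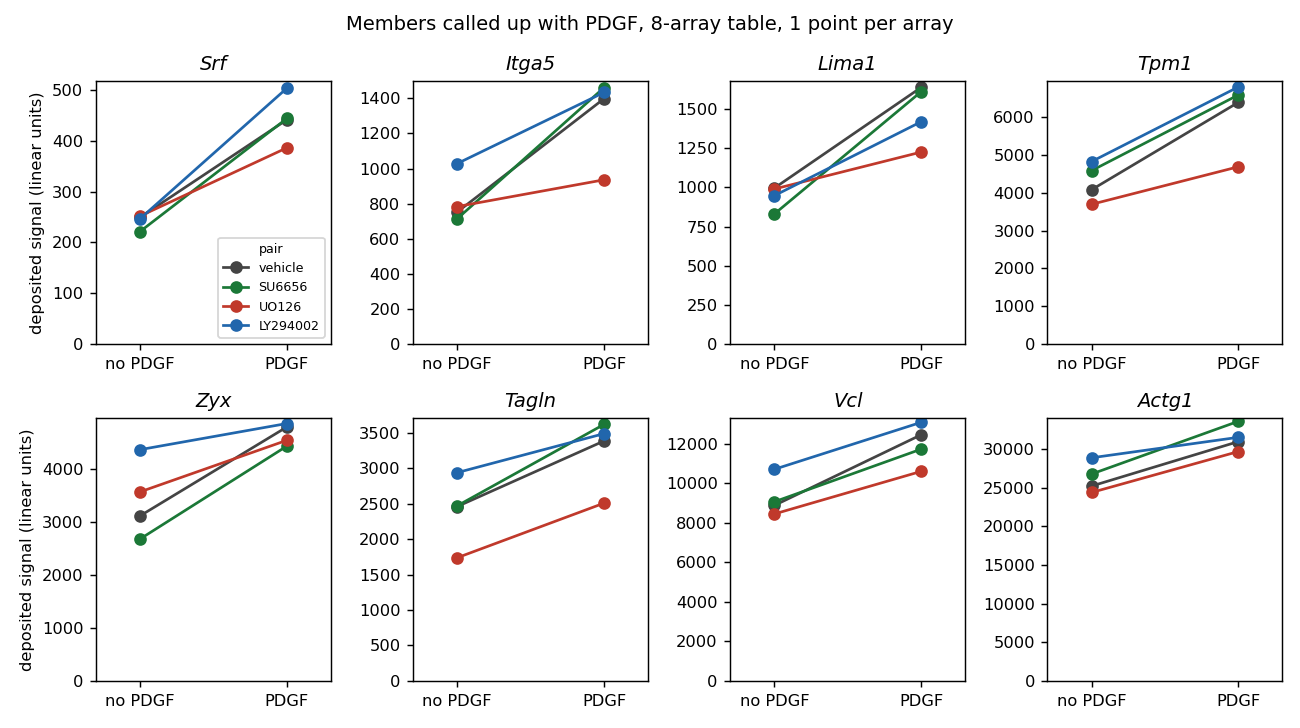
Deposited signal (vertical axis, linear units, starting at 0) of the 8 member genes called up with PDGF in the 8-array table, without and with PDGF. Each point is 1 array and each line joins the pair that shares vehicle or an inhibitor; all lines rise, and the UO126 line ends lowest with PDGF in each panel except that of Zyx.

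Srf, the transcription factor of the group, rose most. Its signal without PDGF was 249.2 with vehicle, 221.4 with SU6656, 251.8 with UO126 and 246.5 with LY294002, and with PDGF it was 441.3, 443.8, 386.1 and 503.3 in the same order. The arrays with and without PDGF did not overlap. The change was 0.84 on the log2 scale (SE 0.12), or 1.79-fold, with a limma adjusted p of 0.00403. A second Srf probe set rose 2.21-fold with a limma adjusted p of 0.00324. Srf was called under each of the 18 alternative settings and left-out arrays, with changes from 0.71 to 0.99. The 9-array table had no probe set of Srf.

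The promoter windows of the RefSeq annotation (build GRCm38.p6, 250 bases before to 50 after the start of transcription) are shown here because Srf binds the CArG box, and the members were listed for their link to Srf. Windows were found for 29 of the 32 members, 34 windows in all, and not for Actb, Tagln and Tgfb1i1. The CArG box was searched on both strands as its exact form, CC, a run of A or T, then GG. It was present in 10 of the 34 member windows, 29.4%, and in 535 of 32851 windows of all genes, 1.63%. These are matches of letters and not measured binding, and the list was named for Srf, so the share is no independent result. The windows of the 4 genes that rose and hold a box are printed for 120 bases, 5′ to 3′ on the gene's strand, with the boxes in capitals. The Srf window, at chr17:46556170-46556289 on the minus strand, holds 2 boxes, which start 82 and 62 bases before the start of transcription. The Actg1 window is chr11:120348521-120348640 (minus), the Lima1 window chr15:99820150-99820269 (minus) and the Vcl window chr14:20929148-20929267 (plus).
Srf: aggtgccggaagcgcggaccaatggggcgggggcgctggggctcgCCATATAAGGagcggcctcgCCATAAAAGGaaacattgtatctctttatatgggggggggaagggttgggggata
Actg1: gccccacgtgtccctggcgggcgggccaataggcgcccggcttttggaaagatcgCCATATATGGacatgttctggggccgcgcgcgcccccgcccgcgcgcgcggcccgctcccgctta
Lima1: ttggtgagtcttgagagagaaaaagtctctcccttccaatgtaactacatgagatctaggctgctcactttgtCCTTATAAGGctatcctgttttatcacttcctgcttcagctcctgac
Vcl: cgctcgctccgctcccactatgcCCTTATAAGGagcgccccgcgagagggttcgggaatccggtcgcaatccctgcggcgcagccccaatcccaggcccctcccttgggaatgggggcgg

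An exact box was also present in members that were not called, Acta1, Cnn2, Fhl1, Fhl2 and Myl9, which are 5 of the 22 such genes with a window. Among the genes that rose it was in 4 of 7, and the difference was not tested. Their boxes are printed with the 10 bases on either side, on the gene's strand of GRCm38.p6, at chr8:123894829-123894858 for Acta1 (minus), chr10:79988534-79988563 for Cnn2 (plus), chrX:56779571-56779600 for Fhl1 (plus), chr1:43163973-43164002 for the first Fhl2 window (minus) and chr2:156775293-156775322 for Myl9 (plus).
Acta1: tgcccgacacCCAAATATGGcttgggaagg
Cnn2: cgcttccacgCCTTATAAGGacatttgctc
Fhl1: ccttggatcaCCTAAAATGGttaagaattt
Fhl2: gcgcgtgtgtCCTTATATGGtcaaatgact
Myl9: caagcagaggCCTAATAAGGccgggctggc
With 1 mismatch allowed, the box was in 55.9% of member windows and 21.1% of all windows. The motif of TEAD factors, GGAATG, was in 29.4% of member windows and 14.7% of all windows. The AP-1 motif, TGANTCA, was in 8.82% and 7.81%. The motifs were counted on both strands, and none of the 3 contains another.

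Of the 4 actins, Actg1 was called. It encodes the cytoplasmic gamma-actin. Its signal without PDGF was 25195.2 with vehicle, 26749.7 with SU6656, 24365.6 with UO126 and 28852.3 with LY294002, and with PDGF 30950.0, 33572.2, 29662.1 and 31502.6. All arrays with PDGF were above all arrays without it. The change was 0.28 (log2, SE 0.0472), or 1.21-fold, with a limma adjusted p of 0.0113. The call was lost without the vehicle array (0.26, limma adjusted p = 0.0795), the PDGF array (0.26, limma adjusted p = 0.0777) or the SU6656 array (0.24, limma adjusted p = 0.0508). The probe set carries a suffix that marks sequence shared between transcripts.

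Actb, the cytoplasmic beta-actin, had signals of 33822.0, 38236.0, 33895.4 and 37282.3 without PDGF and 34440.1, 38909.4, 35063.5 and 36324.8 with it, in the order vehicle, SU6656, UO126, LY294002. These overlapped, and the PDGF change was 0.05 (log2, SE 0.0406). Acta2, the smooth muscle alpha-actin that fibroblasts also make, had 20686.1, 21703.6, 22634.3 and 21763.5 without PDGF and 21963.2, 25505.1, 24045.0 and 21378.4 with it, a change of 0.11 (log2, SE 0.0502, limma adjusted p = 0.313). The skeletal muscle alpha-actin Acta1 had 727.4, 650.2, 469.4 and 684.4 without PDGF and 617.3, 404.9, 480.4 and 621.7 with it. Acta1 had the lowest PDGF change of the members, -0.21 (log2, SE 0.123, limma adjusted p = 0.438). The summed signal of the 8 skeletal and cardiac muscle markers was 461.9 to 756.7 without PDGF and 456.0 to 590.8 with it, and that of the 6 smooth muscle markers on the array 975.7 to 1222.4 and 980.5 to 1243.1.

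Beta-actin was also measured by 3 control probe sets along its transcript, left out of the fits. In the Src experiment each of these was higher with PDGF in 4 of 4 pairs. The log2 change was 0.15 ± 0.07 at the 5 prime part, 0.19 ± 0.04 in the middle and 0.05 ± 0.03 at the 3 prime part (SD, n = 4 pairs; exact two-sided sign-flip test, p = 0.125 for each, the smallest it can give). The middle probe set, for example, went from 27508.9 with vehicle to 31358.2 with PDGF. By contrast, a dimmer Actb probe set that entered the fit was lower with PDGF in each of the 4 pairs. Its changes were -0.15 with vehicle, -0.06 with SU6656, -0.35 with UO126 and -0.45 with LY294002. Its fitted change was -0.25 (log2, SE 0.0819, limma adjusted p = 0.156).

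**Figure D2:**
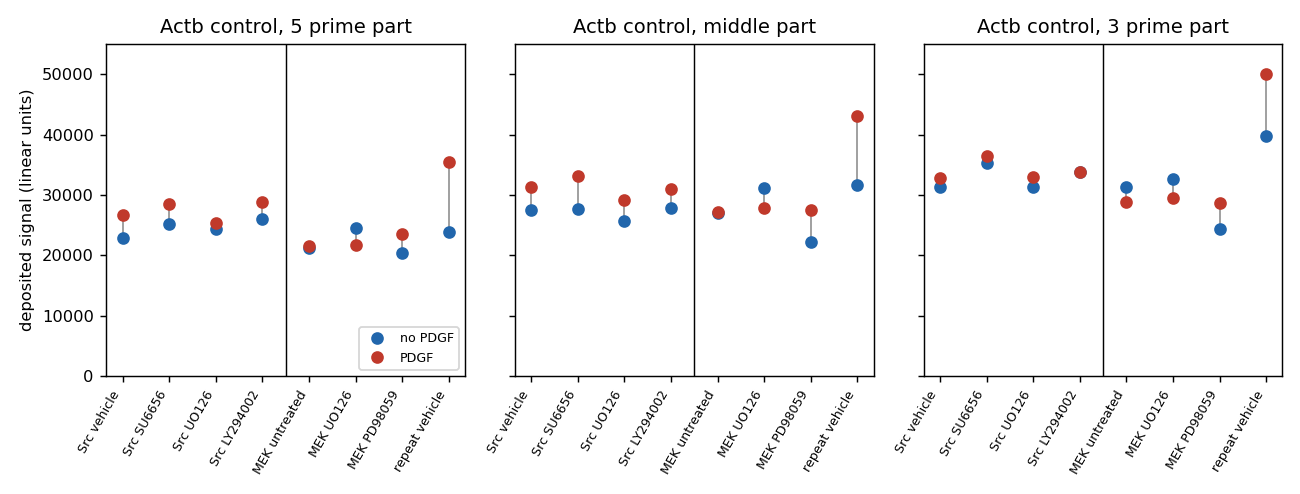
Deposited signal (vertical axis, linear units, starting at 0) of the 3 beta-actin control probe sets without PDGF (blue) and with PDGF (red) in the 8 pairs of arrays, with a vertical line between the 8-array table (left) and the 9-array table (right). The 4 Src pairs rise at each part, the 3 MEK pairs differ in direction, and the repeat rises at each part, 1.49-fold at the 5 prime part.

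Among the 8 crosslinking and filament binding proteins that could be tested, Lima1 and Tagln rose. Lima1 (also called EPLIN), which bundles and stabilises actin filaments, had signals of 995.5 with vehicle, 830.4 with SU6656, 989.7 with UO126 and 947.4 with LY294002. With PDGF these were 1637.9, 1610.6, 1225.4 and 1418.9, with no overlap. The change was 0.61 (log2, SE 0.106), or 1.52-fold, with a limma adjusted p of 0.0132. Both of its other probe sets were called too, at 0.75 and 0.73.

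Tagln (transgelin or SM22), an actin binding protein of smooth muscle and fibroblasts and a classic Srf target, had 2460.1, 2470.3, 1738.0 and 2939.2 without PDGF. With PDGF it had 3385.7, 3619.5, 2508.4 and 3489.1. Each pair rose, but the groups overlapped, since the array of UO126 with PDGF lay below the array of LY294002 alone. The change was 0.40 (log2, SE 0.0689), or 1.32-fold, with a limma adjusted p of 0.012.

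Actn1, Actn4, Flna, Tagln2, Cnn2 and Cald1 were not called at their brightest probe sets. Those crosslinkers and filament binding proteins had changes of 0.00 to 0.22. The nearest to a call at these probe sets were Cald1 (caldesmon) and the crosslinker Actn4. Cald1 had 0.20 with a limma adjusted p of 0.105, and Actn4 had 0.22 with a limma adjusted p of 0.126. A dimmer Actn1 probe set came nearer, at 0.49 with a limma adjusted p of 0.0846. The brightest Actn1 probe set had 0.06 and the remaining one 0.05. Cnn1, a calponin of smooth muscle, did not pass the filter, with signals from 20.7 to 108.3.

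Of the 4 tropomyosins, which run along actin filaments, Tpm1 rose. Its signal without PDGF was 4075.3, 4579.2, 3690.9 and 4818.7, and with PDGF 6382.9, 6578.0, 4682.7 and 6789.7, in the order vehicle, SU6656, UO126, LY294002. The array of UO126 with PDGF again lay below the array of LY294002 alone, so the groups overlapped by that array. The change was 0.46 (log2, SE 0.0648), or 1.37-fold, with a limma adjusted p of 0.00385. Another of its probe sets was called at 0.33, and one was not called at 0.50. Tpm2, Tpm3 and Tpm4 had changes of 0.02 to 0.18 and were not called. Neither myosin II chain was called, with 0.18 for the non-muscle heavy chain Myh9 and 0.10 for the regulatory light chain Myl9.

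Integrin and focal adhesion proteins gave 3 of the 8 calls, out of 6 genes tested. Itga5, the alpha chain of the fibronectin receptor, had signals of 752.1, 714.0, 783.6 and 1028.3 without PDGF and 1397.8, 1460.9, 936.0 and 1433.2 with it. The array of UO126 with PDGF was the low one, below LY294002 alone. The change was 0.64 (log2, SE 0.125), or 1.56-fold, with a limma adjusted p of 0.0241, and the other Itga5 probe set gave 0.71 with a limma adjusted p of 0.0113.

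Zyx (zyxin), a LIM protein of focal adhesions and stress fibres, had 3117.6, 2680.6, 3571.2 and 4369.2 without PDGF and 4797.6, 4436.2, 4545.9 and 4863.2 with it. The groups did not overlap, and LY294002 alone lay close below the PDGF arrays. The change was 0.41 (log2, SE 0.0916), or 1.33-fold, with a limma adjusted p of 0.0453. The other Zyx probe set was not called (0.35, limma adjusted p = 0.293) and was higher with PDGF in 2 of 4 pairs, with changes of 0.79, -0.01, 0.62 and 0.00 in the order vehicle, SU6656, UO126, LY294002.

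Vcl (vinculin), which links integrin adhesions to actin, had 8873.5, 9058.9, 8442.9 and 10701.0 without PDGF and 12448.3, 11721.2, 10597.0 and 13077.2 with it. The overlap was slight, between LY294002 alone and UO126 with PDGF. The change was 0.36 (log2, SE 0.053), or 1.29-fold, with a limma adjusted p of 0.00467, and the other Vcl probe set gave 0.40 with a limma adjusted p of 0.0472. The integrin beta 1 chain Itgb1, talin (Tln1) and Tgfb1i1 (Hic-5) were not called, at 0.03, -0.08 and 0.14.

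None of the 4 LIM proteins Fhl1, Fhl2, Pdlim7 and Csrp1 was called, although each had a positive change, from 0.22 to 0.45. Fhl2, a LIM-only cofactor, had the highest of these, 0.45 (log2, SE 0.12, limma adjusted p = 0.0832). Its change was -0.02 in the vehicle pair and 0.69, 0.68 and 0.48 in the SU6656, UO126 and LY294002 pairs. Fhl2 was called without the vehicle array (0.61, limma adjusted p = 0.0174) or the PDGF array (0.61, limma adjusted p = 0.017). With each array centred on its median, Fhl2 (0.56, limma adjusted p = 0.0395), Csrp1 (0.36, limma adjusted p = 0.0121) and the crosslinker Actn4 (0.35, limma adjusted p = 0.0481) were called as well, and Csrp1 also in the deposited scaling (0.27, limma adjusted p = 0.0495). Cofilin (Cfl1), which severs filaments, and profilin (Pfn1), which binds actin monomers, had 0.05 and 0.10 and were not called.

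Tpm1, Vcl and Srf kept their calls when any 1 array was left out, and Itga5, Lima1, Zyx and Tagln did not. Itga5 lost its call without the SU6656 array (0.52, limma adjusted p = 0.102), the array of PDGF with SU6656 (0.52, 0.105), vehicle (0.56, 0.127), PDGF (0.56, 0.128), LY294002 (0.70, 0.0592) or PDGF with LY294002 (0.70, 0.0606). Lima1 lost it without the same 6 arrays, with limma adjusted p from 0.0558 to 0.08. Zyx lost it without any array of the vehicle, SU6656 or UO126 pairs, with limma adjusted p from 0.0705 to 0.194. Tagln lost it without any array of the vehicle or SU6656 pairs, with limma adjusted p from 0.0599 to 0.0731.

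In the 9-array table none of the 28 member genes tested was called with PDGF, up or down. Over all 6366 genes tested there, 1.63% rose and 0.251% fell with the same limma test. The members with an unadjusted limma p below 0.05 were Actn4 at 0.33, Fhl2 at 0.34 and Tpm4 at 0.23, upward, and Csrp1 at -0.34 and Acta2 at -0.18, downward, with adjusted p from 0.118 to 0.335. The member median was -0.03, beside -0.04 over all genes, with a range of -0.65 to 0.34.

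So no member was called up in both tables, either at the brightest probe set or at any probe set. Counted over probe sets in place of genes, the 8-array table had 2.51% up and 0.808% down, and the 9-array table had 1.46% and 0.264%. Of the 8 genes called in the 8-array table, 6 were tested in the 9-array table and not called there, and 2 were not tested, Srf for want of a probe set and Zyx because its probe set, at 4.7 to 60.5, did not pass the filter. Of 27 genes tested in both tables, 13 had the same sign of change. Calls in both tables and like signs were not counted over all genes, so it is not shown whether the members differ from other genes in this. The tables differ in array design and were normalised separately, and the difference between them was not tested.

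**Figure D3:**
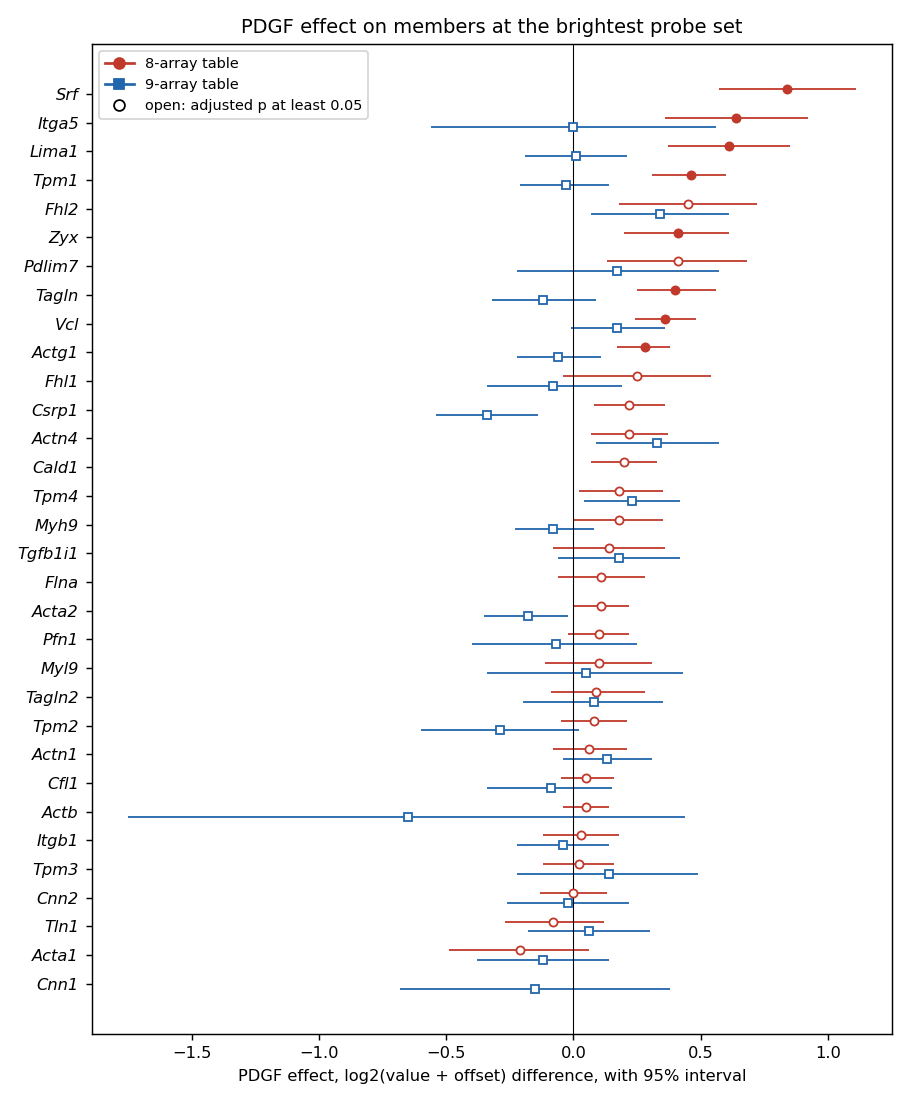
PDGF change (horizontal axis, log2 difference) of each member gene at its brightest probe set with its 95% interval, in the 8-array table (red circles) and the 9-array table (blue squares). Filled symbols mark limma adjusted p below 0.05; 8 red symbols are filled and no blue one is.

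For 4 of these 6 genes the 95% intervals of the tables did not meet. The 6 genes were picked by a call in the 8-array table and none in the 9-array table, which favours such intervals. Intervals that do not meet were not counted over all genes, so this describes these genes only. Lima1 changed by 0.37 to 0.85 in the 8-array table, and the interval in the 9-array table was -0.19 to 0.21. Its 9-array signals were 2559.9, 2303.6 and 2924.5 for untreated, UO126 and PD98059, 2439.5, 2249.5 and 3192.9 with PDGF, and 3920.7 and 4150.8 for vehicle and PDGF in the repeat. These pairs each lay close to no change.

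For Tpm1 the intervals were 0.31 to 0.60 and -0.21 to 0.14, with 9-array signals of 5636.4, 6349.5 and 6774.9, then 5423.4, 5730.1 and 6384.5 with PDGF, and 6798.6 and 7654.9 in the repeat. For Tagln they were 0.25 to 0.56 and -0.32 to 0.09, with 4555.3, 3728.8 and 3701.9, then 3710.3, 3324.8 and 3565.7 with PDGF, and 3103.3 and 3381.8 in the repeat. Both genes were lower with PDGF in each MEK pair and higher in the repeat.

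For Actg1 the intervals were 0.17 to 0.38 and -0.22 to 0.11. Its signals were 21346.4, 21501.5 and 19257.6, then 16182.7, 19245.7 and 19286.9 with PDGF, and 26820.2 and 31176.4 in the repeat. Vcl overlapped between the tables, 0.24 to 0.48 and -0.01 to 0.36. Its signals were 9819.1, 10842.3 and 9688.7, then 10840.6, 11009.7 and 9589.0 with PDGF, and 13760.1 and 16674.0 in the repeat.

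Itga5 had the widest 9-array interval of the 6, -0.56 to 0.56, and its 4 pairs did not move alike. Its signals were 335.8, 210.0 and 350.7 without PDGF in the MEK experiment and 246.4, 188.4 and 219.8 with it, and 291.6 and 625.5 in the repeat, where PDGF with SU6656 gave 775.4. The log2 ratios of PDGF over no PDGF were -0.45, -0.09 and -0.60 in the MEK pairs and 1.13 in the repeat. The repeat minus MEK difference was 1.51 (SE 0.328, limma adjusted p = 0.405, unadjusted p = 0.00191) in a fit added after the data were seen, so it did not pass the threshold, and it rests on the 1 pair of the repeat. No member passed that test, beside 0.0157% of all genes upward. Other members with an unadjusted limma p below 0.05 there were Pdlim7 (0.86), Tagln2 (0.60), Fhl2 (0.58) and Cfl1 (0.55), higher in the repeat, and Actn4 (-0.45), lower.

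The remaining actins in the 9-array table were read as follows. Acta2 had 10754.1, 10134.1 and 9430.5 for untreated, UO126 and PD98059, 8104.7, 9288.5 and 8254.6 with PDGF, and 11708.8 and 11516.5 in the repeat. Acta1 had 2086.1, 1409.2 and 1563.4, then 1955.4, 1587.6 and 1137.1 with PDGF, and 718.8 and 652.8 in the repeat. Neither was called. The tested Actb probe set had 1648.3 on the untreated array and 166.9 to 253.3 on the other 5 arrays of the MEK experiment, with 221.1 and 369.0 in the repeat. That 1 array gives it the lowest change of the members, -0.65, with the widest interval, -1.75 to 0.44. The beta-actin controls did not share this pattern: the middle one read 27023.9 on the untreated array and 27161.1 on the PDGF array.

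As single ratios of 1 array over 1 array, with no test, the experiments gave these members at least 1.5-fold higher with PDGF. In the Src experiment they were Itga5 (log2 ratio 0.87), Srf (0.81), Lima1 (0.69) and Tpm1 (0.62), 4 of 31, beside 5.87% of all genes, and none was lower, beside 5.56%. In the MEK experiment there were none of 28, beside 8.66%, and Actb was lower (-3.18, resting on the untreated array), 1 of 28 beside 8.97%. In the repeat there were 5 of 28, beside 9.55%, and none was lower, beside 10.8%. They were Itga5 (1.13), Pdlim7 (0.81), Fhl2 (0.77), Actb (0.74) and Myl9 (0.59). Itga5 was thus in the list of the Src experiment and of its repeat, which share PDGF dose and time. The actin 3 prime to 5 prime ratio, a mark of RNA integrity, was 1.174 to 1.404 for the Src experiment and 1.191 to 1.67 over the 9-array table, highest on the vehicle array of the repeat, the denominator of these 5 ratios. Its part in them was not tested.

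One probe set of Myh9, the non-muscle myosin heavy chain, that is not its brightest fell with PDGF in the MEK experiment, from 1299.1 to 731.6 in untreated cells, from 1333.4 to 919.8 with UO126 and from 2364.7 to 1031.2 with PD98059. The change was -0.82 (log2, limma adjusted p = 0.0363), beside 0.115% of all probe sets that fell there, in the fit added after the data were seen. It read 2795.8 and 2784.6 in the repeat, and the brightest Myh9 probe set had -0.08 over the 4 pairs. The probe set that fell carries a suffix that marks sequence shared between transcripts, and that fit left 2 residual degrees of freedom.

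**Figure D4:**
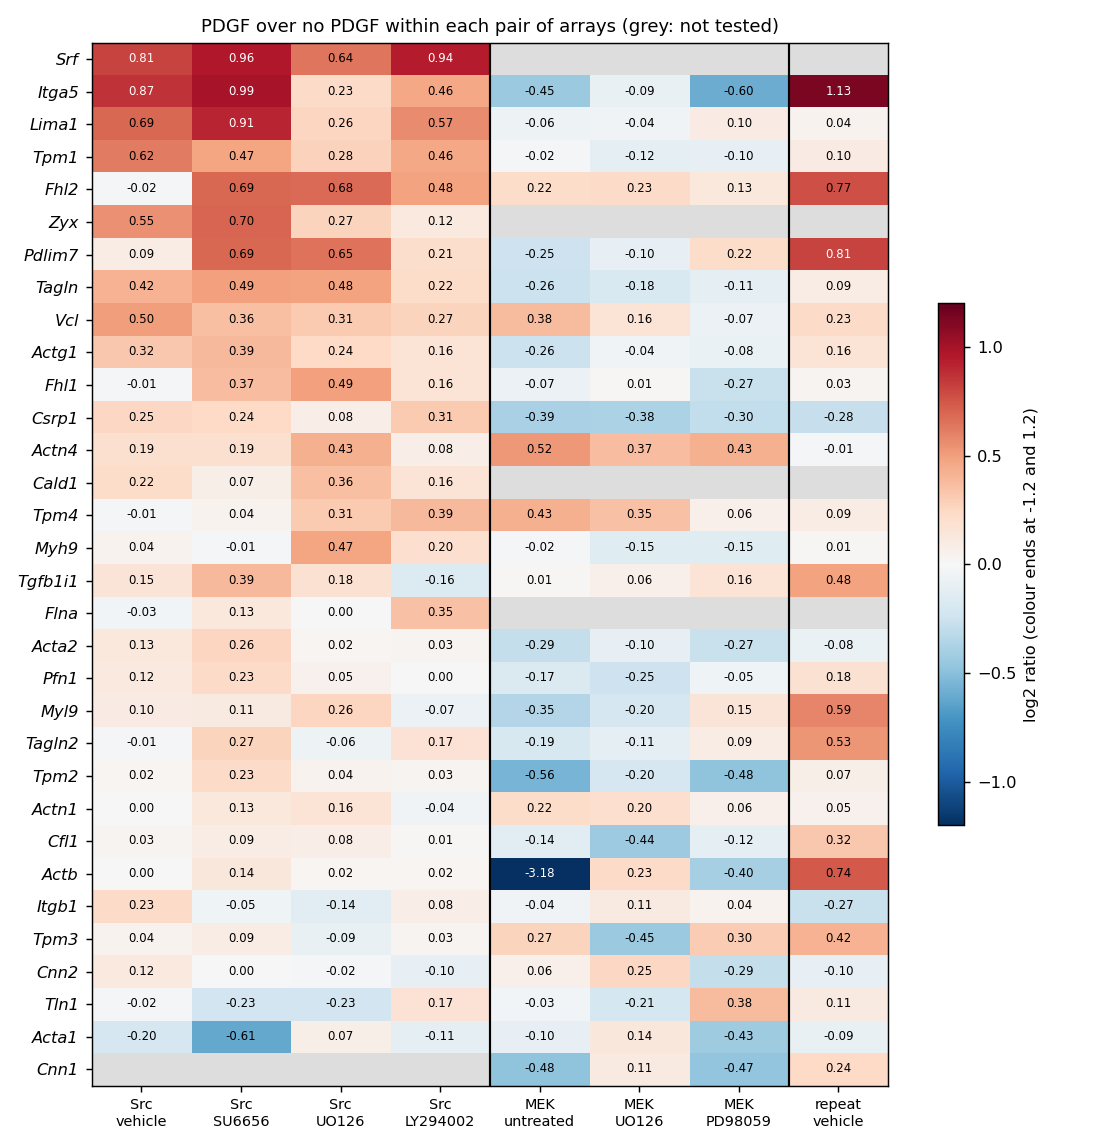
Log2 ratio of PDGF over no PDGF within each of the 8 pairs of arrays (columns) for the 32 member genes (rows), printed in each cell; grey cells were not tested. Red is higher with PDGF; the upper rows are red across the 4 Src pairs, and Itga5 is red in the repeat (1.13) and blue in the 3 MEK pairs.

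With inhibitors, the 8 genes called up with PDGF had a positive PDGF change in each pair of the Src experiment. They were called over these same 4 pairs, which favours a rise in each, so this is no separate result. The lowest of the 4 pairs was that of UO126 for Itga5, Lima1, Tpm1 and Srf, and that of LY294002 for Zyx, Tagln, Vcl and Actg1, 4 of 8 genes each. The PDGF change with vehicle, SU6656, UO126 and LY294002 was 0.87, 0.99, 0.23 and 0.46 for Itga5, 0.69, 0.91, 0.26 and 0.57 for Lima1, and 0.62, 0.47, 0.28 and 0.46 for Tpm1. For Srf it was 0.81, 0.96, 0.64 and 0.94, and for Zyx 0.55, 0.70, 0.27 and 0.12. It was 0.42, 0.49, 0.48 and 0.22 for Tagln, 0.50, 0.36, 0.31 and 0.27 for Vcl, and 0.32, 0.39, 0.24 and 0.16 for Actg1. The PDGF change was smaller than in the vehicle pair for 7 of 8 genes with UO126, Tagln being the other, for 7 of 8 with LY294002, Srf being the other, and for 2 of 8 with SU6656. Over the 8 genes the median was 0.58 in the vehicle pair, 0.60 with SU6656, 0.27 with UO126 and 0.37 with LY294002. Over all genes it was -0.04, -0.06, -0.04 and -0.04 in the same order. The share of all genes with a smaller change than in the vehicle pair was not counted.

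UO126 with PDGF was below PDGF alone for 8 of these 8 genes, by a median log2 ratio of -0.37 and a range of -0.57 to -0.07. The lowest were Itga5 (-0.57), Tpm1 (-0.48), Lima1 (-0.42) and Tagln (-0.42). SU6656 with PDGF was below PDGF alone for 4 of 8, median 0.00, and LY294002 for 3 of 8, median 0.04. The median over all genes was 0.01 for each of the inhibitors. The share below PDGF alone was not counted over all genes, or over all genes called up with PDGF. The 8 genes were called on the same arrays, and the call favours a like rise in all 4 pairs, so these counts describe and support nothing. A smaller PDGF change in the UO126 pair than in the other 3 pairs, tested in a fit added after the data were seen, was not called for any member, beside 0.00% of genes downward and 0.0325% upward. The members with an unadjusted limma p below 0.05 there were Lima1 (-0.47, adjusted p = 0.646) and Itga5 (-0.54, adjusted p = 0.647), downward, and Myh9 (0.39, adjusted p = 0.537), upward. The second Srf probe set went the other way, 0.69 with a limma adjusted p of 0.646.

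In the fit of inhibitor effects over both PDGF states, no member was called at its brightest probe set with SU6656, UO126 or LY294002. Over all genes, 0.00% rose and 0.0976% fell with SU6656, 0.0325% and 0.0217% with UO126, and 0.174% and 0.315% with LY294002. One other probe set was called: an Actb probe set that fell with LY294002 to 0.523 of vehicle (log2 -0.93, SE 0.116, limma adjusted p = 0.0104), beside 0.309% of all probe sets that fell. Its signal was 2510.5 with vehicle and 1468.1 with LY294002, and with PDGF 2304.5 and 1068.9. It read 2121.0 and 2105.0 for SU6656 without and with PDGF, and 1863.1 and 1513.6 for UO126. The brightest Actb probe set changed by -0.01 with LY294002, so the probe sets of this gene disagreed.

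MEK inhibition in the MEK experiment, with UO126 and PD98059 taken as repeats of each other, called no member without PDGF, with PDGF, or in the difference between these. Over all genes the calls there were 0.0157% down without PDGF and none otherwise. The Actb probe set with the high untreated array was called down without PDGF (-2.76) when the MEK experiment was fitted alone (limma adjusted p = 0.025) or without the array of PDGF in the MEK experiment (limma adjusted p = 0.0321), vehicle in the repeat (limma adjusted p = 0.0304) or PDGF in the repeat (limma adjusted p = 0.0326). Fhl2 had the highest ratios. Its signal was 1475.9 untreated, 2409.0 with UO126 and 2260.9 with PD98059, and with PDGF 1730.5, 2867.5 and 2465.8. Both inhibitor arrays were above their control in each state, by 0.76 (log2, SE 0.187, limma adjusted p = 0.356) without PDGF and 0.44 (limma adjusted p = 0.664) with it. In the Src experiment, Fhl2 read 1131.5 with PDGF and 1742.3 with PDGF and UO126, a log2 ratio of 0.59, but 1150.3 with vehicle and 1043.5 with UO126 alone.

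Acta1 went the other way, lower with a MEK inhibitor in each of the 6 ratios of both tables. In the Src experiment the log2 ratios for UO126 were -0.59 without PDGF and -0.32 with it. In the MEK experiment they were -0.56 and -0.33 for UO126 and -0.43 and -0.76 for PD98059. Both inhibitors there share their control arrays, so the 6 ratios are not separate results. How many of all genes were lower in each of the 6 ratios was not counted. None of the fits called Acta1, with limma adjusted p of 0.471 for UO126 in the Src experiment, 0.645 without PDGF and 0.592 with PDGF in the MEK experiment.

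**Figure D5:**
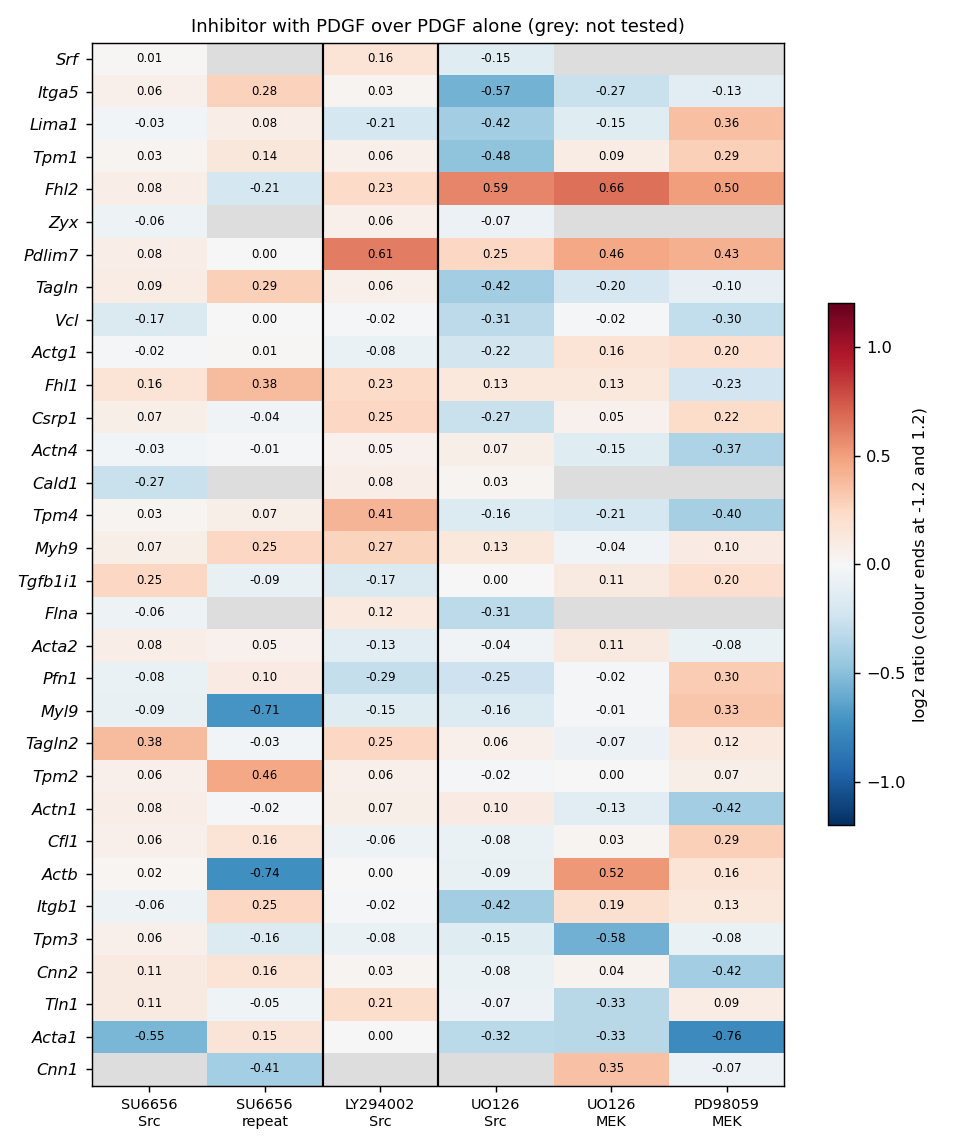
Log2 ratio of an inhibitor with PDGF over PDGF alone, 1 array over 1 array, for the 32 member genes (rows) and 6 ratios (columns, named by inhibitor and experiment), printed in each cell; grey cells were not tested. Red is higher with the inhibitor; Fhl2 is red with both MEK inhibitors (0.59, 0.66 and 0.50), and Acta1 is blue (-0.32, -0.33 and -0.76).

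The other single ratios of an inhibitor over its control, again without a test, had few members past 1.5-fold. Without PDGF in the Src experiment, Fhl2 was lower with SU6656 (-0.64) and Acta1 with UO126 (-0.59), 1 of 31 in each, and no member passed with LY294002 or was higher. Over all genes these ratios had 5.21% up and 5.01% down for SU6656, 5.48% and 5.12% for UO126, and 5.39% and 5.75% for LY294002. Without PDGF in the MEK experiment, Fhl2 was higher with UO126 (0.65) and PD98059 (0.59), beside 7.07% and 7.12% of all genes. Lower were Actb with both (-2.89 and -2.62, resting on the untreated array) and Itga5 with UO126 (-0.63), beside 6.64% of genes for UO126 and 5.92% for PD98059.

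Over PDGF alone in the Src experiment, Fhl2 was higher with UO126 and Pdlim7, an adaptor with a PDZ and LIM domains, with LY294002 (0.61). That was 1 of 31 in each, beside 5.18% and 5.77% of all genes up, and no member was lower, beside 5.33% and 6.24%. Over PDGF alone in the MEK experiment, Fhl2 was higher with UO126 (0.66) and Acta1 lower with PD98059 (-0.76), 1 of 28 in each. All genes had 6.8% up and 6.3% down for UO126 and 7.79% and 7.12% for PD98059. Tpm3 lay just inside the limit with UO126 (-0.58).

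In the repeat, SU6656 with PDGF over PDGF alone was at least 1.5-fold lower for Actb (-0.74) and Myl9 (-0.71), 2 of 28 members beside 7.89% of all genes, and none was higher, beside 7.6%. The Actb probe set went from 369.0 to 212.8. The beta-actin controls did not share this fall. They went from 35451.1 to 34739.9 at the 5 prime part, 43125.5 to 43419.9 in the middle and 49995.7 to 50804.2 at the 3 prime part. In the Src experiment the same ratio was 0.02 for Actb and -0.09 for Myl9, and no member was 1.5-fold changed, beside 4.86% of genes up and 4.95% down. The Src and repeat arrays differ in design and probe sets.

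Other genes of the pathway, from lists chosen for this purpose, showed more calls than the members. Among immediate early targets of the ternary complex type, 12 of 13 rose in the 8-array table and 9 of 11 in the 9-array table, led by Nr4a1 (log2 4.83), Egr2 (3.94), Fosb (3.52) and Egr1 (3.31) in the former and Egr2 (4.06), Nr4a1 (3.83), Ier3 (3.53) and Fos (3.36) in the latter. Those are transcription factors, apart from Ier3, which is an immediate early response protein. Of other MRTF targets 6 of 15 and 3 of 9 rose: Ccn1 (4.18), Ccn2 (3.13), Thbs1 (1.90) and Ankrd1 (1.26) were highest in the 8-array table, and Ccn1 (2.55), Ccn2 (1.84) and Ankrd1 (1.05) rose in the 9-array table. Ccn1, Ccn2 and Thbs1 encode matricellular proteins.

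Among Srf cofactors 1 of 7 rose in the 8-array table and 1 of 6 in the 9-array table, the transcription factor Ets2 in both (0.66 and 0.97). Of further integrin and focal adhesion genes 1 of 13 rose in the 8-array table, the integrin activator Fermt2 (0.43), and none of 10 in the 9-array table. None of these lists had a gene that fell. The lists were made with earlier results of these data known, so their counts are descriptions.

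Markers of other cell types were few among the calls. In the 8-array table the epithelial marker Cldn3 rose (1.42) among 3 tested and the endothelial marker Eng fell (-1.29) among 3 tested, and no skeletal muscle, smooth muscle or leukocyte marker was called. In the 9-array table the fibroblast marker Pdgfra fell (-0.65). The summed signal of the 6 epithelial markers in the 8-array table was 431.9 to 783.3 without PDGF and 603.0 to 751.0 with it, and that of the 5 endothelial markers 514.8 to 759.7 and 384.5 to 464.9. Their part in the members' changes was not tested.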

How the data were processed

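The deposited values were linear array intensity per probe set, which the authors had scaled so that each array's 2% trimmed mean was 500.2 in the 8-array table and, in the other, 500.3 to 500.4, as computed from the files. No scaling software is named in the sources used here. Array medians were 174.7 to 198.4 and 133.7 to 156.1. The number of arrays limits the precision.

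Probe sets were named from the platform annotation (20393 and 10855 with 1 gene, 691 and 396 with several, 1606 and 1237 unlisted), with symbols updated through Entrez identifiers for 20364 and 10839. Control probe sets were left out. Each table was quantile normalised on its own, its 20th percentile (36.3 and 21.2) was added, log2 was taken and probe sets in the lowest 30% by mean signal were removed. This left 15839 and 8696 probe sets, of which 61 of 66 and 42 of 46 member probe sets passed; 31 of 32 and 28 of 30 member genes were tested.

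PDGF was tested with limma 3.58.1 (R 4.3.3; lmFit, eBayes with trend) over 4 pairs in each table that share experiment and inhibitor, as a block, and p-values were adjusted by Benjamini-Hochberg across every probe set kept. The unpaired array of PDGF with SU6656 was left out of the PDGF fit of the 9-array table. Inhibitor effects came from the same fit for the Src experiment and from a fit with MEK inhibition, PDGF and their interaction for the 9-array table; 3 residual degrees of freedom remain, and the residual holds any interaction. Inhibitors share their control arrays. Single ratios were called at 1.5-fold. The fits were tested on simulated data. Alternatives covered scaling, offset, filter, variance trend, probe set choice, the block and each array left out.

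Named genes were Srf, the 4 actins and each member past the threshold, with signals on each array, the others by range and count, and at most 4 genes per pathway or marker list, those of largest change. Genes outside this rule (Fhl2, Pdlim7, Csrp1 and others named with values) were chosen after their values were seen. The members and lists were chosen with earlier results of these data known. A probe set shared by Tpm4 and another gene was left out by the rule. Sequences came from RefSeq promoter windows of GRCm38.p6, which were used for names and letters only. Protein sequences were not used here. One further gene list is not reported here.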

Additional observations from a re-analysis of the deposited data

Results flagged for a closer look

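The beta-actin control probe sets, which entered no fit, were higher with PDGF in 4 of 4 pairs of the Src experiment, with mean log2 changes of 0.15 at the 5 prime part, 0.19 in the middle and 0.05 at the 3 prime part. They are listed here because they lie outside the main measurement. The Gapdh control probe sets changed by 0.00, 0.02 and 0.01 in the same order, higher in 2, 2 and 3 of 4 pairs. In the repeat the beta-actin controls went from 23771.7 to 35451.1, from 31685.6 to 43125.5 and from 39703.4 to 49995.7, while the 3 MEK pairs differed in direction. The Gapdh controls rose in the repeat too, by log2 changes of 0.27, 0.35 and 0.28, beside 0.58, 0.44 and 0.33 for beta-actin. An Actb probe set that entered the fit was instead lower with PDGF in each of the 4 Src pairs, at -0.25 (log2, limma adjusted p = 0.156). The cause of these changes was not tested.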

How the results depend on the processing

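The count of 8 members up with PDGF in the 8-array table was 5 with no filter, 1 (Srf) with no variance trend, 2 with no replicate block, and 3 to 7 when 1 array was left out. It was 9 in the deposited scaling, 11 with median centring, 7 with the mean over probe sets, 7 with shared-sequence probe sets left out, and 8 with either other offset or the stricter filter. In the 9-array table the PDGF count was 0 under each alternative. Members down with LY294002 came to 1 (Actb) with the mean over probe sets. Members down with MEK inhibition without PDGF came to 1 (Actb, at the probe set whose untreated array stands apart) with the MEK experiment alone, and to 0 to 1 when 1 array was left out. Among ratios, the deposited scaling gave 1 member down for UO126 with PDGF over PDGF in the MEK experiment. An offset of 100 gave 0 up for UO126 and 0 up for LY294002 with PDGF over PDGF in the Src experiment, 3 up for PDGF and 1 down for SU6656 in the repeat. At the looser fold, under 1.5, the Src experiment had 8 up with PDGF, 1 up and 1 down for SU6656, 5 down for UO126 and 2 up for LY294002. The MEK experiment had 3 up and 6 down with PDGF, 4 up and 3 down for UO126, and 4 up and 5 down for PD98059, and the repeat 8 up with PDGF and 2 up for SU6656. At 2-fold the Src experiment had 0 up with PDGF, 0 up for UO126 and 0 up for LY294002, the MEK experiment 0 up for UO126 and 0 down for PD98059, and the repeat 1 up with PDGF and 0 down for SU6656. No result reversed. Calls were kept in 18 of 18 alternatives for Srf, 16 of 18 for Vcl, 15 of 18 for Tpm1, 12 of 18 for Tagln, 11 of 18 for Lima1, 11 of 17 for Actg1, 9 of 18 for Itga5 and 8 of 18 for Zyx. The cause of these shifts was not tested, apart from fewer arrays or genes entering a fit.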

Other observations

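Across the 27 member genes tested in both tables, the vehicle-pair PDGF ratio of the Src experiment had a Pearson correlation of 0.06 (Spearman -0.12) with that of the MEK experiment and 0.13 (Spearman -0.09) with that of the repeat. Over 5538 genes in both tables the values were 0.40 (0.20) and 0.43 (0.20). These are correlations across genes, which are not independent replicates, and each value rests on 1 pair of arrays per experiment and on different probe sets.

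Without PDGF, LY294002 alone lay above vehicle for Zyx (log2 ratio 0.49), Pdlim7 (0.49) and Itga5 (0.43), as single arrays.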
